A study of Mus musculus with 2 samples.

Results

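The genes described here encode the constant regions of mouse antibodies and the joining chain: 7 heavy chain constant genes (Igha, Ighm, Ighd, Ighg1, Ighg2b, Ighg2c and Ighg3), the kappa light chain constant gene Igkc and Jchain. They were chosen by symbol, and all 9 were found among the 32285 genes counted in both libraries. Their RNA was followed in plasma cells, in B cells and in the other cells of the same libraries, where its source was not tested. A plasma cell was a kept cell with at least 3 UMIs (unique molecular identifiers, each standing for 1 captured RNA molecule) of Mzb1 and at least 2 in all of Derl3, Tnfrsf17, Sdc1 and Prdm1. Its isotype was that of the heavy constant gene with the most UMIs, if that gene had at least 10 and no tie.

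The study treated Nf1-OPG mice, a model of optic glioma, with vancomycin, an antibiotic that acts on gut bacteria, or with PBS from 6 to 12 weeks of age. The mice of both groups carried the Nf1flox/neo; GFAP-Cre genotype, in which Cre driven by the GFAP promoter removes Nf1 from neuroglial progenitors and every other cell has 1 mutated copy. The vancomycin library and the control library each pooled 10 mice killed at 12 weeks, so each group is 1 sample. No test between the groups was possible, and the 95% intervals given (exact binomial for shares, exact Poisson for levels and ratios) cover counting error only. The protocol describes both optic nerves and sorted meningeal dura, while the tissue label of both libraries is optic nerve. Of the labelled tissue's glia, 3956 oligodendrocyte-like cells were found in the vancomycin library and 0 among the 4108 kept cells of the control library, so shares of all cells depend on what each library contained. Kept cells had a median of 6788.5 UMIs in the vancomycin library (15252 cells) and 4870.5 in the control library. Both libraries listed 87 of the same barcodes among kept cells, and 0 among plasma cells.

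An antibody is built from heavy and light chains, and the heavy constant gene in use sets its class. A B cell starts with Ighm and Ighd, and can later cut out DNA between switch regions so that a gene further along the locus, such as an Ighg gene or Igha, lies behind its variable region. Plasma cells secrete the antibody, and the J chain joins the units of IgM pentamers and IgA dimers, the form that the polymeric immunoglobulin receptor carries across mucosa. IgA plasma cells that arise in the gut are known in the mouse dura beside the venous sinuses.

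In the GENCODE M21 annotation of GRCm38 (mm10), the 7 heavy constant genes lay on the minus strand of chromosome 12 within 167.9 kb, from base 113254830 to base 113422730. Read in the direction of transcription their order was Ighm, Ighd, Ighg3, Ighg1, Ighg2b, Ighg2c and Igha. Igkc was a single exon at chr6:70726435-70726966 on the plus strand, and Jchain had 4 exons at chr5:88519809-88527891 on the minus strand. The IgG genes are close paralogs, and reads from stretches that they share could be counted for the wrong gene. How far this happened was not tested. The first 120 bases of the first constant exon are shown for the 4 IgG genes, in the direction of the RNA, because IgG2c cells also held Ighg2b and Ighg3 UMIs. Capitals mark the bases that differ from Ighg2c.
Ighg2c, chr12:113288813-113288932: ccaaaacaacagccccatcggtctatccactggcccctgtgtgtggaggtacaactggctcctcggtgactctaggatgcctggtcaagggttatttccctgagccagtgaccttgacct
Ighg2b, chr12:113307814-113307933: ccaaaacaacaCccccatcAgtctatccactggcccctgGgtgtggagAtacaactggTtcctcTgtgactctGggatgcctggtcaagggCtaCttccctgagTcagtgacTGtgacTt
Ighg3, chr12:113361113-113361232: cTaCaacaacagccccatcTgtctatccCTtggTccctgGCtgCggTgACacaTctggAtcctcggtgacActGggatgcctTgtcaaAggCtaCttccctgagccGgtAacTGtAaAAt
Ighg1, chr12:113330404-113330523: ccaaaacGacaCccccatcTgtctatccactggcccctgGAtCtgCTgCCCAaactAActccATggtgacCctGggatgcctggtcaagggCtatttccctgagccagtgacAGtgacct
Ighg2b differed from Ighg2c at 13 of these bases, Ighg1 at 21 and Ighg3 at 27. Over the whole exon of 291 bases, 255, 256 and 228 bases matched, with longest shared runs of 34, 28 and 18 bases. Over the whole transcripts, Ighg2b shared 56 of its 1065 stretches of 50 bases with Ighg2c, while Ighg3 and Ighg1 shared 0.

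The plasma cells of both libraries were mostly IgA and IgG2c cells. The gate took 988 vancomycin cells (6.48% of kept cells, 6.09 to 6.88%) and 95 control cells (2.31%, 1.87 to 2.82%), beside 3073 and 1327 T cell-like cells. Gate cells had medians of 23312.5 UMIs in vancomycin and 27583 in control, with 408.5 and 486 heavy constant UMIs. The 50 vancomycin and 7 control cells just inside the gate had median Jchain UMIs of 69.5 and 72, and the 98 and 10 cells that were 1 UMI short had 14 and 94. Of the gate cells, 39 in vancomycin and 1 in control lay in the B cell-like cluster, with median Jchain UMIs of 1 and 0. IgA was the isotype of 431 vancomycin plasma cells (43.6%, 40.5 to 46.8%) and of 43 control plasma cells (45.3%, 35.0 to 55.8%). IgG2c, the C57BL/6 counterpart of IgG2a, came next with 358 vancomycin cells (36.2%, 33.2 to 39.3%) and 34 control cells (35.8%, 26.2 to 46.3%). The intervals of the vancomycin shares of both isotypes lay within those of the control shares.

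Counted by cells, the IgG2b and IgG1 intervals of the libraries did not overlap. These intervals treat each cell as a separate draw, while many of these cells shared their variable genes. Counted by pairs of variable genes, as described below, the intervals of both classes overlapped. IgG2b was the isotype of 156 vancomycin cells (15.8%, 13.6 to 18.2%) against 5 control cells (5.26%, 1.73 to 11.9%). IgG1 was that of 9 vancomycin cells (0.911%, 0.417 to 1.72%) against 11 control cells (11.6%, 5.92 to 19.8%). These opposite differences left the sum of all IgG classes at 523 vancomycin cells (52.9%) and 50 control cells (52.6%). IgM was the isotype of 7 vancomycin cells (0.709%, 0.285 to 1.45%) and 0 control cells, which allows a share of up to 3.81%. IgD and IgG3 had 0 cells in either library, which allows up to 0.373% in vancomycin and 3.81% in control. No isotype was reached by 27 vancomycin cells (2.73%) and 2 control cells (2.11%).

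**Figure D1:**
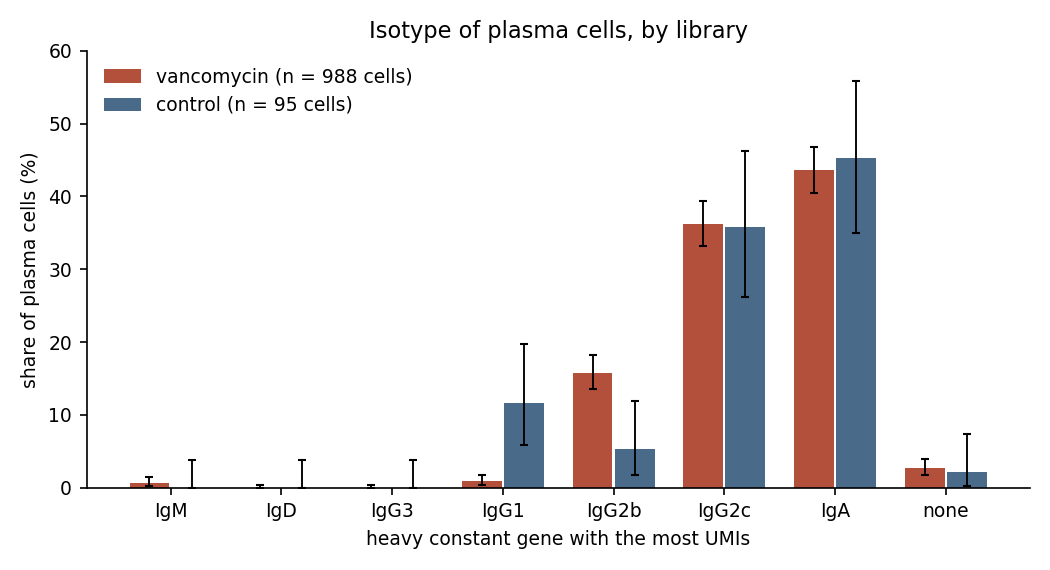
Share of plasma cells (%) with each heavy constant gene highest, in the vancomycin library (988 cells) and the control library (95 cells). Bars are shares and lines are exact binomial 95% intervals: the IgG2b and IgG1 intervals of the libraries do not overlap, and those of IgA and IgG2c do. The intervals treat each cell as a separate draw, and counted by variable gene pair those of IgG2b and IgG1 overlap.

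The 7 IgM cells held 430, 341, 239, 190, 188, 188 and 77 Ighm UMIs, and the 9 vancomycin IgG1 cells held 1521, 1103, 1043, 813, 490, 467, 466, 340 and 204 Ighg1 UMIs. The 11 control IgG1 cells held 1452, 1382, 999, 829, 748, 707, 566, 544, 230, 192 and 25 Ighg1 UMIs, so IgG1 cells of the libraries overlapped in their Ighg1 content.

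The IgG1 share of the control depended on where plasma cells were drawn. Plasma cell-like clusters, made without any immunoglobulin gene, held 57 vancomycin and 30 control cells outside the gate. Of these, 1 vancomycin and 24 control cells were IgG1 cells, and taking clusters in place of the gate put IgG1 at 1.03% of 972 vancomycin cells and 29.4% of 119 control cells. In 22 of those 24 control cells the top light chain variable gene was Igkv5-43, and their totals were 529 to 963 UMIs (median 639.5), with 21 to 58 Ighg1 UMIs and 8 to 25 Jchain UMIs. Whether these barcodes are separate cells was not tested, and the share of 29.4% rests on them. All 24 control cells with Igkv5-43 as their top light variable gene were IgG1 cells and 23 of them had fewer than 1000 UMIs, while 6 vancomycin cells had that gene on top and 0 of them were IgG1. Without Igkv5-43 cells the clusters gave IgG1 shares of 1.03% in vancomycin and 11.6% in control, and the gate gave 0.913% and 9.68%.

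Variable gene pairs, examined after these values were seen, showed how unevenly the isotypes were populated. A cell's pair was its top heavy and top light variable gene, each with at least 10 UMIs. A pair is named by germline genes alone, so cells of 1 pair need not be 1 clone, and similar variable genes can take each other's reads. The vancomycin plasma cells held 178 pairs in 946 cells and the control plasma cells 35 pairs in 91 cells. The most frequent was Ighv1-81 with Igkv8-30 in vancomycin, in 103 cells (10.9%), and Ighv1-19 with Igkv1-117 in control, in 28 cells (30.8%). The libraries had 9 pairs in common, which are 5.06% of the vancomycin pairs and 25.7% of the control pairs, and they covered 335 of 946 vancomycin cells (35.4%) and 47 of 91 control cells (51.6%).

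Single pairs held large parts of several IgG classes. Of the vancomycin IgG2b cells, 55 of 156 (35.3%, 27.8 to 43.3%) carried Ighv1-81 with Igkv8-30, as did 4 of 5 control IgG2b cells. Among IgG1 cells, 5 of 9 in vancomycin carried Ighv1-19 with Igkv3-2, and 9 of 10 in control carried Ighv1-19 with Igkv1-117. Control IgG2c cells had that same pair in 14 of 34 (41.2%), and vancomycin IgG2c cells had at most 60 of 355 (16.9%) in 1 pair. Ighv1-19 with Igkv1-117 was in 40 IgG2c, 12 IgA, 7 IgG2b and 0 IgG1 cells of the vancomycin library and in 14 IgG2c and 5 IgA cells of the control library. Counting each pair once per isotype, IgG1 was 4 of 244 in vancomycin (1.64%, 0.448 to 4.14%) and 2 of 46 in control (4.35%, 0.531 to 14.8%), so by pairs the IgG1 intervals overlapped. By the same count IgG2b was 14.8% in vancomycin and 4.35% in control, and their intervals overlapped as well (10.6 to 19.8% and 0.531 to 14.8%). IgA was 121 of 244 in vancomycin (49.6%) and 28 of 46 in control (60.9%).

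IgA and IgG cells used many of the same pairs. In vancomycin, 50 pairs occurred in both IgA and IgG cells, which are 41.3% of the 121 IgA pairs and 50% of the 100 IgG pairs. In control there were 9 such pairs, 32.1% of 28 IgA pairs and 56.25% of 16 IgG pairs.

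**Figure D2:**
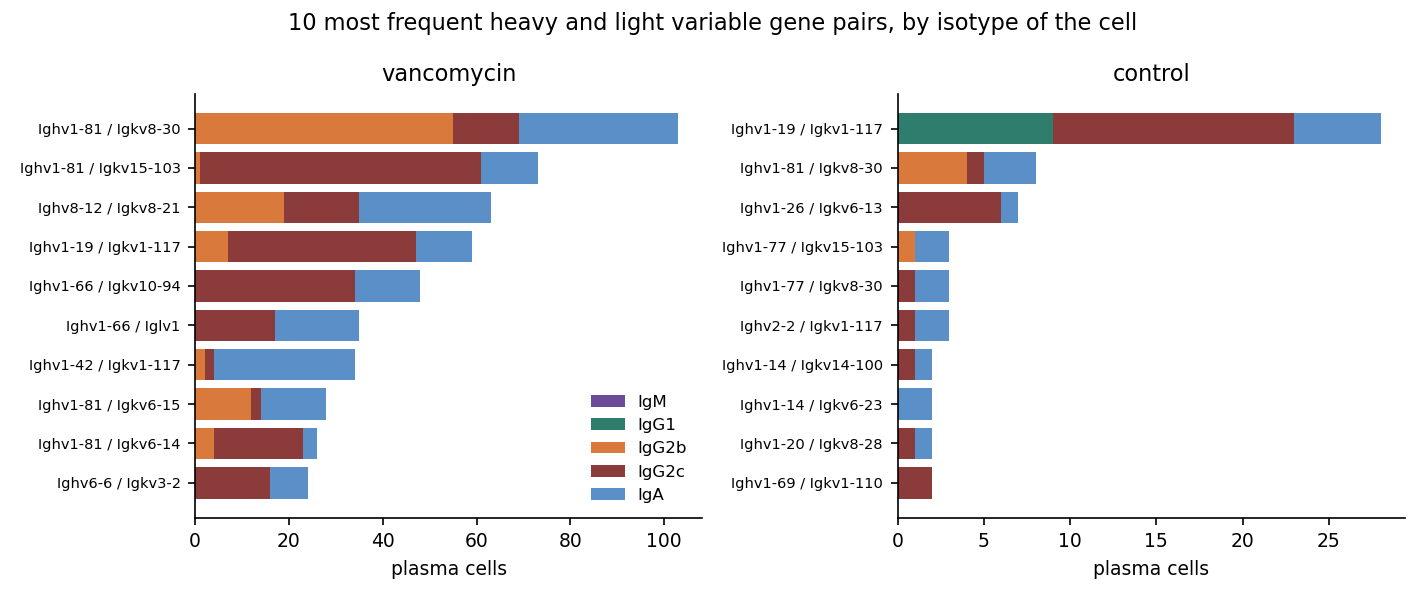
Number of plasma cells with each of the 10 most frequent pairs of heavy and light variable genes, in the vancomycin library (left) and the control library (right), coloured by isotype. In the control, 9 of the 11 IgG1 cells sit in the top pair, Ighv1-19 with Igkv1-117, which is the fourth pair in vancomycin and has 0 IgG1 cells there.

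Summed over plasma cells, Ighg1 was the gene that differed most between the libraries. Levels are UMIs per 1000000 UMIs of the class (CPM), not corrected for transcript length, so genes are not compared with each other. With the chemistry used, reads start at the 5′ end of the RNA, where the variable segment lies. Immunoglobulin genes made up a median of 59.4% of a vancomycin plasma cell's UMIs and 59.8% of a control one's, and the 9 genes made up 14.2% and 14.1% of those. Ighg1 was at 265 CPM in vancomycin and 3042 CPM in control, a ratio of 0.0870 (0.0842 to 0.0899) and a log2 ratio of -3.47 after 10 CPM were added to both.

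Ighg2b was at 4688 CPM in vancomycin and 2746 CPM in control (ratio 1.71, 1.67 to 1.75, log2 0.77). Igha was at 7738 and 7912 CPM (ratio 0.978), and Ighg2c at 5489 and 6020 CPM (ratio 0.912). Jchain was at 40463 CPM in vancomycin and 43635 CPM in control (ratio 0.927), and Igkc at 15894.5 and 21416 CPM (ratio 0.742, 0.736 to 0.749). Ighg3, with no cells of its own, was at 252 and 175 CPM, and is described with the IgG2c cells.

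Ighm was at 105 CPM in vancomycin and 193 CPM in control (ratio 0.545). Of the 495 control Ighm UMIs, 442 were in 1 cell, an IgA cell with 446 Igha UMIs, so the control level rests on that cell. Ighd had 2 UMIs in all vancomycin plasma cells and 0 in the control ones.

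Of the 9 genes, 8 had the 50 UMIs needed to be counted: none (0) reached 2-fold higher in vancomycin, and 1, Ighg1, was more than 2-fold lower. Of all 10923 genes counted in plasma cells, 3.88% reached 2-fold higher and 0.87% reached 2-fold lower. The median log2 ratio was -0.12 over the 8 genes and 0.19 over all genes. Scaling by TMM factors moved the median of all genes to 0.05 and put Ighm past 2-fold as well, at a log2 ratio of -1.11. That Ighm value and its direction rest on the 1 control cell with 442 of the 495 control Ighm UMIs. Weighting every cell equally put Ighg2b past 2-fold, at 1.01.

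Within a plasma cell, 1 heavy constant gene took nearly all heavy constant UMIs, except in IgG2c cells. The top gene held a median of 100% in IgA cells of both libraries, 99.0% in vancomycin and 99.1% in control IgG2b cells, and 99.1% and 98.1% in IgG1 cells. In IgG2c cells it held a median of 86.9% in vancomycin and 88.1% in control. There Ighg2b took 7.999% of heavy constant UMIs in vancomycin and 6.85% in control, with medians of 26 and 33 UMIs per cell. Ighg3 took 3.87% and 2.46%, with medians of 13.5 and 10 UMIs per cell. Nearly every IgG2c cell showed this: 99.7% of vancomycin and 100% of control cells had an Ighg2b UMI, and 99.4% and 97.1% an Ighg3 UMI.

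The reverse was weaker in amount. In IgG2b cells, Ighg2c took 2.53% of heavy constant UMIs in vancomycin and 0.682% in control, with medians of 2 and 8 UMIs per cell. Most of these cells still had an Ighg2c UMI, 84.6% in vancomycin and 100% in control. Ighg3 was seen in 8.33% of vancomycin and 0% of the 5 control IgG2b cells, and Ighg1 in 2.23% of vancomycin and 20.6% of control IgG2c cells. Whether the Ighg2b and Ighg3 UMIs of IgG2c cells are RNA of those genes or reads of Ighg2c was not tested. Igha UMIs, in 71.2% of vancomycin and 73.5% of control IgG2c cells, had medians of 3 and 6 per cell.

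**Figure D3:**
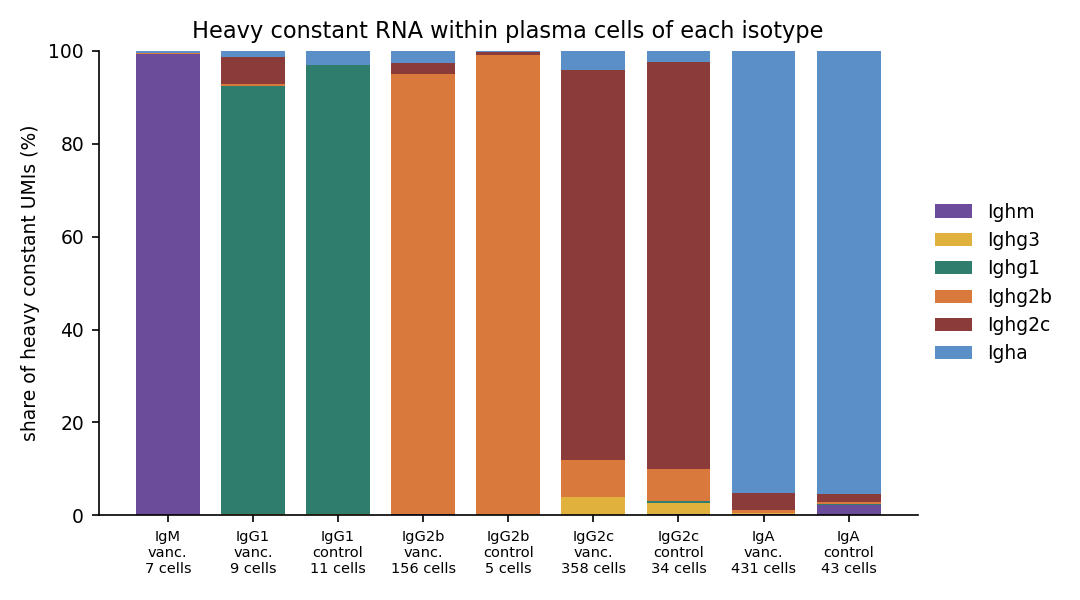
Share of heavy constant UMIs (%) from each gene, summed over the plasma cells of each isotype in the vancomycin (vanc.) and control libraries. The IgG2c bars hold 7.999% and 6.85% Ighg2b and 3.87% and 2.46% Ighg3, and the 2.15% Ighm of control IgA cells comes almost wholly from 1 cell.

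J chain RNA was present in plasma cells of every isotype, and was higher in IgA cells than in IgG cells of both libraries. The median was 1239 Jchain UMIs per IgA cell (quartiles 807 and 1640.5) against 825 per IgG cell (471 and 1177.5) in vancomycin, and 1354 (633 and 1886.5) against 1083 (437.75 and 1572.25) in control. Scaled to all UMIs, IgA over IgG gave 1.53 (1.53 to 1.54) in vancomycin and 1.59 (1.57 to 1.60) in control. Among IgG classes the vancomycin medians were 890 in IgG2c, 635 in IgG2b and 461 in IgG1 cells. In control they were 1120.5, 1119 and 738. The 7 vancomycin IgM cells had a median of 652. The quartile ranges of all these isotypes overlapped, so the order is one of medians.

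Kappa RNA ran the other way. Igkc had a median of 262 UMIs per IgA cell against 461 per IgG cell in vancomycin, and 358 against 793.5 in control, with scaled ratios of 0.676 (0.671 to 0.680) and 0.747 (0.733 to 0.760). Per heavy constant UMI, IgA cells held 0.690 Igkc UMIs against 0.979 in IgG cells in vancomycin, and 0.852 against 1.21 in control. On this measure only IgG2c cells lay above IgA cells (1.23 in vancomycin and 1.56 in control). IgG2b cells (0.655 and 0.796) and IgG1 cells (0.625 and 0.749) lay below them. Cells with more lambda (Iglc1, Iglc2 and Iglc3) than kappa constant UMIs were 35 of 431 IgA cells (8.12%, 5.72 to 11.1%) against 18 of 523 IgG cells (3.44%, 2.05 to 5.38%) in vancomycin. In control they were 2 of 43 (4.65%) against 0 of 50, which leaves the intervals overlapping.

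**Figure D4:**
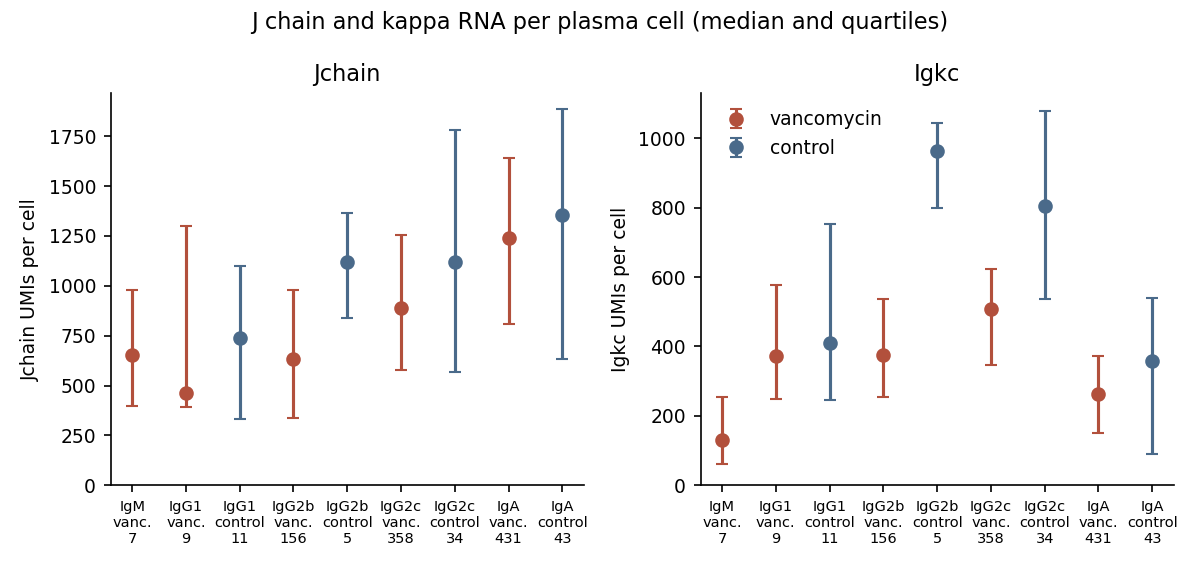
Jchain (left) and Igkc (right) UMIs per plasma cell by isotype, in the vancomycin (vanc.) and control libraries, with the number of cells under each label. Points are medians and lines run from the first to the third quartile: Jchain is highest in IgA cells of both libraries (1239 and 1354), where the Igkc medians (262 and 358) are below those of all IgG classes in the same library.

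The J chain difference was then taken among cells with the same variable genes. In pairs with at least 5 IgA cells and at least 5 cells of an IgG class, 17 comparisons over 12 pairs could be made, and Jchain CPM was higher in the IgA cells in 16. By medians it was higher in 14 and lower in 3, and these 3 include both control comparisons. For Ighv1-81 with Igkv8-30 in vancomycin, the median was 1238.5 Jchain UMIs in 34 IgA cells against 428 in 55 IgG2b cells (CPM ratio 2.29, 2.26 to 2.33). In control, IgA cells with Ighv1-19 and Igkv1-117 (5 cells) had a median of 648 Jchain UMIs, against 1059 in 9 IgG1 and 1407.5 in 14 IgG2c cells, while the CPM ratios were 2.39 and 1.89. The exception by CPM was Ighv1-19 with Igkv1-117 in vancomycin, with a ratio of 0.835 (0.808 to 0.862) between 12 IgA and 7 IgG2b cells. Igkc CPM was higher in the IgA cells in 2 of the 17. The lambda pair Ighv1-66 with Iglv1 is among the 17, with a median of 2 Igkc UMIs in both its IgA and its IgG2c cells. The comparisons share IgA cells where a pair had several IgG classes, so they are not independent.

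Few other genes separated IgA from IgG plasma cells in the same direction in both libraries. Of 2968 genes measured in both, 8 reached 2-fold higher in IgA cells of both libraries and 1 reached 2-fold lower. In each library alone, 0.729% of 10696 genes in vancomycin and 4.17% of 3067 genes in control reached 2-fold higher, and 0.393% and 3.26% reached 2-fold lower. Txndc5, a disulfide isomerase of the endoplasmic reticulum, was at 784 CPM in IgA against 275 CPM in IgG cells in vancomycin, and at 704 against 234 CPM in control. Tnfrsf17 (BCMA), the receptor through which plasma cells take up survival signals, was at 47.1 against 10.3 CPM in vancomycin and 73.1 against 10.2 CPM in control. It is also a gene of the gate. Oosp1 was lower, at 34.2 against 103 CPM and 36.5 against 107 CPM. The haemoglobin genes Hbb-bs, Hbb-bt and Hba-a1 also passed, but in control 1 cell held 4122 of the 4129 Hbb-bs UMIs of IgA cells.

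The other antibody pathway genes were called in plasma cells by the same rule, after 10 CPM were added to both values. Low genes such as Itgae can therefore differ by more in CPM than the call shows. Of all 10923 genes, 3.88% reached 2-fold higher in vancomycin and 0.87% lower, so 0 in lists this short is near the background. In the plasma cell programme and secretion list, 0 of 27 measured genes were 2-fold higher or lower in vancomycin, Mzb1 being at 3154 CPM in vancomycin and 3403 in control and the chaperone Hsp90b1 at 2143 and 2989. The largest differences in that list were those of Cd28 (32.1 and 58.9 CPM), a costimulatory receptor, and the disulfide isomerase Pdia4 (478 and 727 CPM). Likewise 0 of 8 class switching and B cell receptor genes, 0 of 14 homing genes, 0 of 3 lambda constant genes and 0 of 2 survival factors reached 2-fold. Among them were Cd79a, a signalling chain of the B cell receptor (1125 and 830 CPM), the integrin chains Itga4 (164 and 207 CPM), Itgb7 (28.5 and 53.4 CPM) and Itgae (19.6 and 7.80 CPM), and the lambda genes Iglc1 (799 and 643 CPM) and Iglc2 (1394 and 1147 CPM). The antibody receptor list had 2 of 7 higher: Fcer1g, the signalling chain of Fc receptors, at 130 CPM in vancomycin and 53.8 in control, and the IgG receptor Fcgr4 at 14.99 and 0.780 CPM. In microglia-like cells, where both are abundant, Fcer1g was at 2359 and 1959 CPM and Fcgr4 at 251 and 61.4 CPM. The part of RNA from other cells in the plasma cell values was not tested.

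Between isotypes, Itga4, a chain of the gut homing integrin, was at 164 CPM in IgA against 161 in IgG cells in vancomycin and 195 against 215 CPM in control. Ccr10, a chemokine receptor of mucosal IgA plasma cells, was at 80.9 CPM in IgA against 37.0 in IgG cells of the vancomycin library (log2 0.95). In control it was at 78.1 against 49.7 CPM (0.56). Cxcr3, a receptor for interferon-induced chemokines, was at 49.3 against 89.1 CPM in vancomycin (-0.74) and 47.7 against 101 CPM in control (-0.95). These log2 ratios are after 10 CPM were added to both values, and by them neither receptor reached 2-fold in either library. By CPM alone, Ccr10 in vancomycin and Cxcr3 in control were past 2-fold. In the programme list, 2 of 27 genes were 2-fold higher in IgA cells of vancomycin and 4 of 25 in control, with 0 lower in either. Over all genes, 0.729% in vancomycin and 4.17% in control were higher, and 0.393% and 3.26% lower. Tnfrsf17, higher in both libraries, is also a gene of the gate. Mzb1 was at 2634 against 3580 CPM in vancomycin and 2418 against 4033 CPM in control. In control alone, Iglc1 was higher in IgA cells (1067 against 378 CPM), and Ms4a1 (11.2 against 52.9 CPM) and Fcer1g (3.04 against 86.0 CPM) were lower, where vancomycin had 718 against 870, 27.0 against 44.7 and 112 against 139 CPM.

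B cells were few, and their constant genes differed from those of the plasma cells. Outside the gate, B cell-like clusters held 335 vancomycin and 36 control cells, with Cd79a at 2249 and 2496 CPM and Ms4a1 (CD20) at 744 and 454 CPM. Igha was the most abundant heavy constant gene by UMIs in both libraries, with 1023 of 1876 heavy UMIs in vancomycin and 221 of 277 in control. Without cells of over 20 UMIs of the 9 genes, Igha held 50.3% of 1468 heavy UMIs in vancomycin but 21.7% of 69 in control, where Ighm led with 49.3%. Over all B cells, Igha was the gene with the most heavy UMIs in 149 vancomycin cells (44.5%, 39.1 to 49.98%) and 10 control cells (27.8%, 14.2 to 45.2%), and Ighm in 92 (27.5%, 22.8 to 32.6%) and 11 (30.6%, 16.3 to 48.1%). UMIs of any Ighg gene were in 142 vancomycin cells (42.4%, 37.0 to 47.9%) and 5 control cells (13.9%, 4.67 to 29.5%).

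The B cell levels turned on single cells in the control. Igha was at 534 CPM in vancomycin and 1339 in control, but 1 control cell with 122 Igha UMIs, 2 Mzb1 UMIs and 0 Ms4a1 UMIs held 55.2% of the control total. Without cells of over 20 UMIs of the 9 genes, Igha was at 451 CPM in 313 vancomycin cells and 116 CPM in 32 control cells, the opposite order. Ighm was at 218 CPM in vancomycin and 206 in control, Ighd at 17.7 and 90.9, Ighg2b at 114 and 18.2, Ighg2c at 64.7 and 24.2, Igkc at 404 and 994, and Jchain at 291 and 406 CPM. Without the high cells Jchain also turned round, to 216 CPM in vancomycin and 139 in control, and Igkc stood at 360 and 657 CPM. Ighg1 had 41 UMIs in vancomycin, 26 of them in 1 cell, and 0 in control. The control values of Ighg2b and Ighg2c were 3 and 4 UMIs, and their ratios of 6.26 (2.11 to 30.6) and 2.67 (1.02 to 9.95) are correspondingly wide.

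Among 6 members measured in B cells, 2 reached 2-fold higher in vancomycin (Ighg2b and Ighg2c) and 2 reached 2-fold lower (Igha and Igkc). The background was 8.27% of 5380 genes higher and 6.88% lower. Without the high cells 3 were higher (Igha at a log2 ratio of 1.87, Ighg2b at 1.72 and Ighg2c at 1.42) and 0 were lower. When B cells were taken instead by UMIs of B cell marker genes (376 vancomycin and 31 control cells), Igha and Igkc turned to log2 ratios of 0.27 and 0.37, and Jchain stood at 3.11. The higher Ighg2b and Ighg2c held under that choice, at 4.14 and 3.04. Beside them in the clusters, 5 of 19 programme genes were lower in vancomycin, among them Xbp1 (86.1 and 339 CPM) and Slamf7 (53.7 and 218 CPM), and S1pr1, a receptor for exit from lymphoid tissue (34.9 and 133 CPM), was lower too. The part of plasma cells within the control B cell cluster in these values was not tested.

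Light chains of the B cells gave opposite readings from constant and variable genes. Lambda constant UMIs outnumbered Igkc UMIs in 280 of 335 vancomycin B cells (83.6%, 79.2 to 87.4%) and 11 of 36 control B cells (30.6%, 16.3 to 48.1%). By variable genes, lambda outnumbered kappa in 9 vancomycin (2.69%, 1.24 to 5.04%) and 1 control cell (2.78%), and kappa outnumbered lambda in 97.3% and 94.4%. Lambda variable UMIs per lambda constant UMI were 0.194 in vancomycin and 0.132 in control B cells, against 7.65 and 3.83 in plasma cells of the same libraries. For kappa, the same quantity was 19.3 and 10.1 in B cells and 21.1 and 17.0 in plasma cells. The libraries were counted with different versions of Cell Ranger, and whether that moves these ratios was not tested.

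J chain RNA was detected in every other class of a library. In vancomycin, 43.9 to 53.3% of cells had a Jchain UMI in the 8 classes with at least 50 cells in both libraries, from astrocyte-like to dendritic cell-like cells, and so did 49.2% of oligodendrocyte-like cells (median 9491 UMIs), which do not make antibody. In control the range was 13.1 to 23.5%. These shares are not matched for depth. With every cell thinned to 1000 UMIs they were 10.4 to 22.3% in vancomycin and 1.19 to 7.26% in control, and T cell-like cells (21.1%, 19.6 to 22.6%) stood above dendritic cell-like cells (10.4%, 8.83 to 12.2%) in vancomycin. Oligodendrocyte-like cells of vancomycin were at 10.7% (9.70 to 11.7%).

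In T cell-like cells Jchain was at 226 CPM in vancomycin and 86.5 CPM in control (ratio 2.61, 2.40 to 2.84), and 1 control cell held 359 of the 662 control UMIs. Without cells of over 20 UMIs of the 9 genes it was at 194 and 35.2 CPM, a ratio of 5.50 (4.85 to 6.25). Plasma cells were 6.48% of kept cells in vancomycin and 2.31% in control. Igkc in T cell-like cells was at 55.1 CPM in vancomycin and 47.7 in control, and at 44.4 and 30.1 without such cells.

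Calls in these 8 classes were made after 10 CPM were added to both values. Of the members with enough UMIs there, Jchain was past 2-fold in all but NK cell-like cells, and NK cell-like cells were the only class of the 8 with a lower member. In T cell-like cells 1 of 6 was higher (Jchain), against 2.12% of all genes higher and 1.33% lower. In microglia-like cells 1 of 4 was higher (Jchain, 110 CPM in vancomycin and 28.7 in control), against 2.53% and 2.11% of all genes. In border-associated macrophage-like cells 2 of 4 were higher (Jchain, 230 and 35.4 CPM, and Igkc, 71.7 and 11.4 CPM), against 3.13% and 2.27%. In dendritic cell-like cells 2 of 6 were higher (Jchain, 116 and 28.6 CPM, and Igkc, 38.5 and 13.1 CPM), against 3.98% and 3.08%.

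The glial and stromal classes had the same leading gene. In oligodendrocyte precursor-like cells 2 of 3 members were higher (Jchain, 130 CPM in vancomycin and 22.4 in control, and Igha, 14.4 CPM and 1 UMI), against 4.78% of all genes higher and 2.28% lower. In astrocyte-like cells 2 of 2 were higher (Jchain, 191 and 23.9 CPM, and Igkc, 76.3 and 14.7 CPM), against 5.84% and 3.64%, and in fibroblast-like cells 1 of 3 (Jchain, 139 and 35.9 CPM), against 4.07% and 2.29%. In NK cell-like cells 0 of 5 were higher and 2 were lower, Ighg2b (11.7 and 56.8 CPM) and Igkc (51.9 and 126 CPM), against 2.99% and 4.38%.

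Single cells set several of these levels, in both libraries. Without cells of over 20 UMIs of the 9 genes, some 2-fold calls, made after 10 CPM were added to both values, changed. Igkc was no longer called in dendritic cell-like cells (23.9 CPM in vancomycin and 13.4 in control). Nor was it called in astrocyte-like cells (33.5 and 14.7 CPM, log2 0.82 after the addition), where 1 vancomycin cell held 41 of 73 Igkc UMIs. Igha was no longer called in oligodendrocyte precursor-like cells (12.8 and 2.04 CPM, log2 0.92 after the addition), where control had 1 UMI. It was now called in dendritic cell-like cells (log2 1.05). Jchain was past 2-fold in all 8 classes without such cells, at log2 ratios from 1.42 to 2.56. In control NK cell-like cells, 1 cell held 41 of 42 Ighg2b UMIs, 1 held 134 of 258 Jchain UMIs (51.9%), and 1 held 49 of 93 Igkc UMIs (52.7%). Without the 2 cells over 20 UMIs, Igkc turned round, to 51.9 CPM in vancomycin and 23.6 in control, as did Ighg2b, to 11.7 and 1.39 CPM. The control NK level of 349 Jchain CPM, against 214 CPM in vancomycin, was 41.6 CPM without the 2 cells over 20 UMIs, while 0 vancomycin NK cell-like cells were over 20.

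Ighm and Igha varied more between classes. Ighm was at 55.7 CPM in vancomycin and 76.8 CPM in control microglia-like cells, 78.6 and 79.7 CPM in border-associated macrophage-like cells, and 83.8 and 56.1 CPM in dendritic cell-like cells. NK cell-like cells followed at 53.2 and 39.2 CPM, with a UMI in 21.9% and 19.1% of cells, and T cell-like cells were at 27.9 and 16.9 CPM. Fibroblast-like cells were at 3.76 and 10.6 CPM. It was at 2.45 CPM in vancomycin and 0 of 52 cells in control among oligodendrocyte precursor-like cells, 2.09 CPM and 0 of 99 cells among astrocyte-like cells, and 0.719 CPM in vancomycin oligodendrocyte-like cells. Over the 3 myeloid classes together, set against oligodendrocyte precursor-like, astrocyte-like and fibroblast-like cells, Ighm was 28.0 times higher in vancomycin (19.4 to 41.9) and 16.8 times higher in control (8.45 to 39.0). The vancomycin ratio was 13.4 with doublets kept and 55.6 with every cell weighted equally. The same ratio for Jchain was 0.964 (0.908 to 1.02) in vancomycin and 1.03 (0.757 to 1.42) in control, and for Igkc 1.24 and 1.06. The median depths were 8639 and 6352.5 UMIs in vancomycin and 5972 and 4881.5 in control. The libraries' counting versions differ, and the part of intronic reads in the Ighm values was not tested. The 59 plasmacytoid dendritic cell-like cells of vancomycin had Ighm at 233 CPM, with a UMI in 84.7% of cells, against 2 such cells in control.

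Myeloid cells held few heavy variable UMIs per UMI of all heavy constant genes. Microglia-like cells held 1.06 in vancomycin and 0.353 in control, border-associated macrophage-like cells 1.27 and 0.321, and dendritic cell-like cells 0.469 and 0.382. In vancomycin dendritic cell-like cells Igha UMIs (1428) outnumbered Ighm UMIs (1347), so that ratio is not one of Ighm alone. B cells held 1.47 in vancomycin, near the myeloid values, and 4.70 in control. Among B cells with at most 10 heavy constant UMIs the ratio was 1.83 in 291 vancomycin cells and 2.68 in 33 control cells. The control value thus rests largely on a few cells. T cell-like cells held 2.93 and 4.96, or 2.39 and 1.41 among cells with at most 10 heavy constant UMIs. Plasma cells held 5.12 and 7.22, and vancomycin oligodendrocyte-like cells 5.29. In control microglia-like cells Ighm was at 76.8 CPM while all heavy variable genes together were at 30.1 CPM. The microglia-like cells with an Ighm UMI had a Cd79a UMI in 1.42% of vancomycin and 0.860% of control cells, and those without one in 1.33% and 0.418%. For Cd79b the shares were 13.9% and 8.60% of cells with an Ighm UMI and 10.5% and 3.63% of cells without one. Ms4a1 was in 0.283% of the microglia-like cells with an Ighm UMI in vancomycin and in 0% in control. The median depth was 8740 UMIs with an Ighm UMI and 6298 without one in vancomycin, and 8418 and 3755 in control, and its part in these shares was not tested.

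Igha was highest of the 8 classes in dendritic cell-like cells, at 88.9 CPM in vancomycin and 50.1 CPM in control, with a UMI in 32.3% (29.9 to 34.9%) and 12.9% (6.64 to 22.0%) of cells. In NK cell-like cells it was at 32.5 and 48.7 CPM, so that control dendritic and NK cell-like cells were nearly level, and in border-associated macrophage-like cells at 37.5 and 21.5 CPM. Thinned to 1000 UMIs, 103 of 1314 vancomycin and 1 of 77 control dendritic cell-like cells had an Igha UMI. In microglia-like cells it was at 12.1 and 3.36 CPM, in T cell-like cells at 16.8 and 16.2 CPM, and in vancomycin oligodendrocyte-like cells at 16.3 CPM with a UMI in 7.66%. Without cells of over 20 UMIs of the 9 genes, dendritic cell-like cells were at 83.7 CPM in vancomycin and 35.4 in control. Ighg1, Ighg2b and Ighg2c were each under 13 CPM in all 8 classes of vancomycin, and Ighg3 at most 1.30 CPM.

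**Figure D5:**
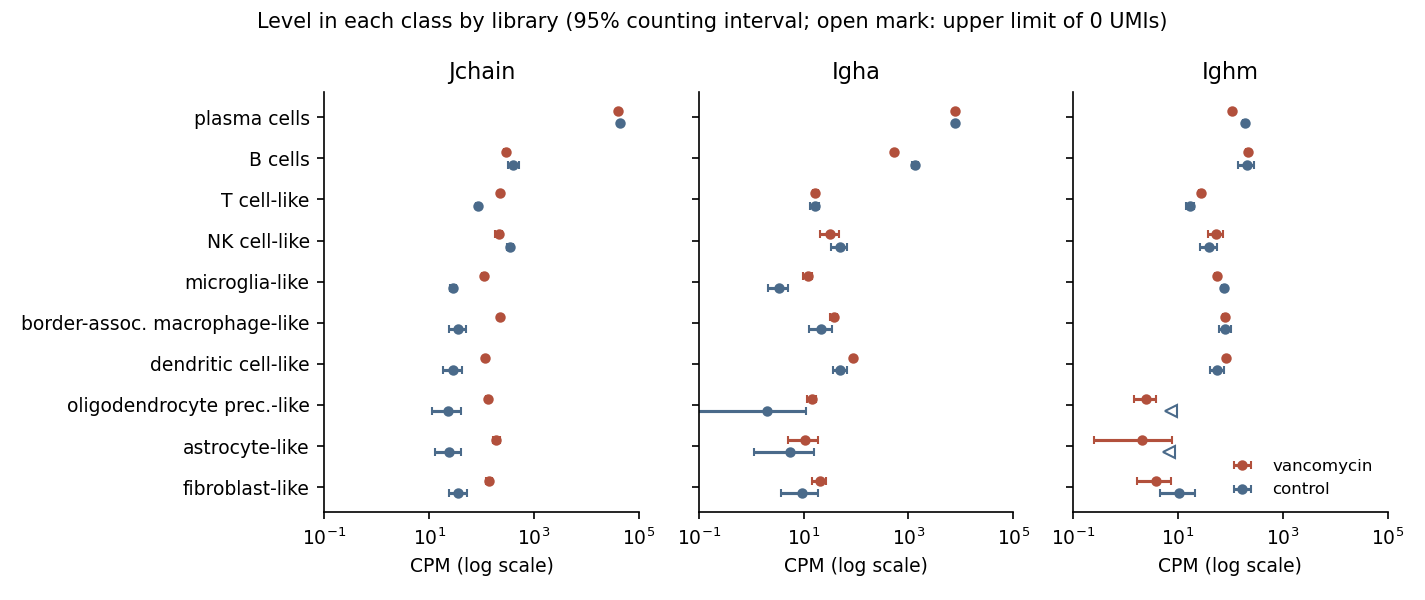
Jchain, Igha and Ighm in plasma cells, B cells and 8 other classes, as CPM of the class on a log scale, in the vancomycin and control libraries, with exact Poisson 95% intervals. Open marks are upper limits where 0 UMIs were seen. In the 8 plotted classes other than plasma and B cells, Jchain lies between 110 and 230 CPM in vancomycin, while Ighm lies between 55.7 and 83.8 CPM in its myeloid classes and at 2.45 CPM or below in precursor-like and astrocyte-like cells.

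Across 9 classes in 2 libraries (18 points, which share libraries and include plasma cells), the genes whose log2 level was most like Igha, Igkc and Jchain were Mzb1, Slpi and Derl3. Pearson's r with Mzb1 was 0.967 for Igha, 0.983 for Igkc and 0.974 for Jchain, and 0.501, 0.732 and 0.852 over the 16 points without plasma cells. Mzb1, a chaperone of antibody secretion, and Derl3, a degradation factor of the endoplasmic reticulum, were also genes of the gate. Ighm had other neighbours, Slamf7 (r 0.937), Glipr1 (0.937) and Edem1 (0.871), with 0.941, 0.917 and 0.842 without plasma cells.

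Of the genes that receive antibody, the polymeric immunoglobulin receptor Pigr, which carries J chain-bearing IgA and IgM across epithelia, had 6 UMIs in plasma cells, 3 in dendritic cell-like cells, 1 in B cells and 1 in T cell-like cells, all in the vancomycin library. It had 0 UMIs in plasma, T cell-like and dendritic cell-like cells of the control library, and in microglia-like, oligodendrocyte precursor-like, astrocyte-like and fibroblast-like cells of both libraries. Control had only 95 plasma and 85 dendritic cell-like cells, against 988 and 1380 in vancomycin, so its 0 UMIs do not show a lower Pigr level. The IgG receptor Fcgr3 was at 962 CPM in vancomycin and 862 CPM in control microglia-like cells and at 541 and 468 CPM in border-associated macrophage-like cells. Fcgrt, which recycles IgG, was at 397 and 391 CPM in fibroblast-like cells. The survival factor Tnfsf13b (BAFF) was at 74.5 and 36.4 CPM in microglia-like cells, and Cxcl12, a chemokine that holds plasma cells in bone marrow, at 426 and 598 CPM in fibroblast-like cells.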

How the data were processed

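Single cells of 1 vancomycin and 1 control library (10x, 5′ chemistry) were analysed as the UMI counts per gene and cell barcode that the authors deposited as filtered matrices, made with Cell Ranger 7.2.0 for vancomycin and 6.0.1 for control per the file headers, and with mm10 and Partek named in the submitters' processing notes. The sources used here do not say whether intronic reads were counted. Cells with at least 500 UMIs, 200 genes and at most 20% mitochondrial UMIs were kept, which left out 870 vancomycin barcodes (5.24%) and 164 control barcodes (3.84%). Scrublet marked 474 vancomycin doublets, which were left out. It marked 0 control doublets and so did not work there. The kept cells were 15252 of 16596 vancomycin and 4108 of 4272 control barcodes, with 144451114 and 25609899 UMIs over all barcodes.

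Clusters were made without the 394 immunoglobulin genes, from 2000 variable genes, 30 principal components and 15 nearest neighbours joined by their number of shared neighbours, by Leiden clustering at resolution 1 (scanpy 1.11.5, igraph 0.11.9), and were named from fixed markers. Levels are UMIs summed over the cells of a class, per 1000000 UMIs (CPM). A gene was measured with at least 50 UMIs in a comparison and called at a 2-fold ratio after adding 10 CPM. edgeR 4.0.16 and DESeq2 1.42.0 gave scaling factors for alternatives only. With 1 library per group there is no test, and cells are not replicates. The members, gene lists and comparisons were chosen with earlier results of these data known. Named genes were all 9 members, the 3 genes most like each of 4 members, 2 genes by level and 2 by ratio from each list, and up to 5 genes in each direction between isotypes. IgA cells were set against IgG cells in place of the planned IgM cells, of which control had 0. Variable gene pairs, plasma cell-like clusters in place of the gate and the removal of cells over 20 UMIs were added after seeing the data. Values of some genes are not reported here.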

Additional observations from a re-analysis of the deposited data

How the results depend on the processing

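No paired analysis was possible because each group is 1 library. Counting each main value once per other setting, 171 stayed within their interval or within 1.5 times the count and 46 moved. Among the remaining values, counted in the same way, 92 stayed, 70 moved and 3 turned round. The cause of the moves was not tested. Asking for 80% of heavy UMIs in the top gene put IgG2c at 31.0% in vancomycin. Plasma cell-like clusters in place of the gate gave control 32.8% IgA and 29.4% IgG1, and gate or cluster 28% IgG1. Counting each variable gene pair once gave 49.6% IgA, 31.1% IgG2c and 2.87% IgM in vancomycin, and 60.9% IgA and 4.35% IgG1 in control. In plasma cells, 2 members were lower when scaled to UMIs outside immunoglobulin genes, by TMM factors or by DESeq2 size factors (Ighm at -1.10, -1.11 and -1.12), where the median of all genes was 0.11, 0.05 and 0.04 against 0.19, and 1 was higher (Ighg2b) with cells weighted equally or thinned to 2000 UMIs. These Ighm values and their direction rest on the 1 control cell with 442 of the 495 control Ighm UMIs. In B cells, 1 member was higher with 50 CPM added, 1 lower with equal weights, and 4 higher and 0 lower by marker UMIs, where Igha (0.27) and Igkc (0.37) turned round. Without cells over 20 UMIs, 0 were lower in B cells and Igha turned round (1.87). TMM and DESeq2 factors moved the B cell median of all genes to 0.19 and 0.16 from -0.02.

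The vancomycin Jchain ratio of myeloid to glial and stromal classes was 1.08 in thinned cells, 0.758 without cells holding a plasma marker UMI and 0.760 without cells over 20 UMIs. The Jchain ratio in T cell-like cells was 3.91, 5.25 and 5.50 under the same settings, and 3.33 with equal weights. The vancomycin Ighm ratio of myeloid to glial and stromal classes was 13.4 with doublets kept and 55.6 with equal weights. For IgA over IgG in vancomycin, Jchain was 1.65 within gate and cluster, 1.55 with the 80% rule, 1.63 thinned, 1.40 scaled outside immunoglobulin genes and 1.65 by clusters, and Igkc was 0.724, 0.663, 0.693, 0.615 and 0.725. In control, Jchain was 1.64 within gate and cluster, 1.55 thinned, 1.54 scaled outside immunoglobulin genes and 1.64 by clusters, and Igkc was 0.763 within gate and cluster, 0.719 with the 80% rule, 0.720 thinned and 0.723 scaled outside immunoglobulin genes. The 95 control plasma cells and 36 control B cells limit what the control can show.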
